A study of Rattus norvegicus with 6 samples.

Results

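The proteasome is the protease complex that breaks down proteins tagged with ubiquitin, and its subunit genes were followed here in rat brain after intracerebral hemorrhage (ICH), bleeding from a vessel into the brain tissue. Members were all non-control array probes that a RefSeq transcript assigned to a rat symbol starting with Psm, a letter from a to g and a digit, leaving out Psmb8 and Psmb9. This gave 50 probes of 30367, for 44 genes. Of these, 42 encode subunits, activators, assembly chaperones or an inhibitor of the complex, while Psmc3ip, a cofactor of meiotic recombination, and Psme3ip1, a partner of the activator subunit Psme3, came in by name and are no proteasome parts. The 3 sham arrays held RNA of brain tissue from sham-operated rats, and the 3 ICH arrays RNA of what the labels name peripheral brain tissue of rats with ICH, which the series title places around the hematoma. Every sample carries day 1 under the tag age, without a starting point, and strain, sex, the way the bleed was made and the dissected region are not given in the sources used here. The design text calls the second group transfected, which no sample label repeats. The labels name the samples biological replicates, and the 3 arrays per group limit the precision. Values are log2 signals relative to the 75th percentile of the array, and differences are ICH minus sham with n = 3 arrays in each group.

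The core particle of the proteasome, 20S, is a barrel of stacked rings: the outer rings are built of alpha subunits, which form a gate, and the inner rings of beta subunits, some of which hold the proteolytic sites. The regulatory particle, 19S, caps the barrel, binds ubiquitin chains and removes them, and uses a ring of ATPases to unfold the substrate. Interferon signalling can exchange the catalytic beta subunits for inducible ones, and the 11S activator (Psme1 and Psme2), also inducible by interferon, can cap the barrel in place of 19S. When proteasome activity falls short, the transcription factor Nfe2l1 is known to raise subunit genes together through antioxidant response elements in their promoters.

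Promoter letters for these known inputs are shown for the 3 members with the lowest p-values in ICH against sham, Psmb10, Psmc5 and Psmd8, and for the catalytic subunits Psmb5 and Psmb6. Psmb7, also catalytic, is not shown. RefSeq promoters of build GRCr8 were matched by symbol for 40 of the 44 genes, and the 250 bases before the annotated gene start were searched on both strands. Capitals mark the core letters of the antioxidant response element, TGACNNNGC or its reverse complement, and GAAA followed after 2 bases by GAAA, or the reverse complement, which is part of interferon-stimulated response elements. Each sequence runs 5′ to 3′ on the strand of the gene.

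Psmb10 chr19:50743293-50743542 (-): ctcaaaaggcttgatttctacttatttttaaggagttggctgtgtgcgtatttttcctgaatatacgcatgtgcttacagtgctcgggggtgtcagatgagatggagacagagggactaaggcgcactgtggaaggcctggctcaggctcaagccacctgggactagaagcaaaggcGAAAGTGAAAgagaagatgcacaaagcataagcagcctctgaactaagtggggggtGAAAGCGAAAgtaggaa
Psmb5 chr15:32047380-32047629 (-): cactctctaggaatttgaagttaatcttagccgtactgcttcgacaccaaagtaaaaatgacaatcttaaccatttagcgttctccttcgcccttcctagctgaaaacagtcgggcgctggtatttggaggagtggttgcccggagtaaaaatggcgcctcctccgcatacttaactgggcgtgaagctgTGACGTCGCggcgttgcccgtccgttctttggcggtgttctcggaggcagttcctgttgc
Psmb6 chr10:55737638-55737887 (+): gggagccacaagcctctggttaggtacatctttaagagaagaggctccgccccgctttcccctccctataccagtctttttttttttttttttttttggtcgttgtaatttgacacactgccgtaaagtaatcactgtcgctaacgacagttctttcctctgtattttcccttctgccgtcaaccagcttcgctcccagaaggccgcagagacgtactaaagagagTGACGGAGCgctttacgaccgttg
Psmc5 chr10:91687303-91687552 (+): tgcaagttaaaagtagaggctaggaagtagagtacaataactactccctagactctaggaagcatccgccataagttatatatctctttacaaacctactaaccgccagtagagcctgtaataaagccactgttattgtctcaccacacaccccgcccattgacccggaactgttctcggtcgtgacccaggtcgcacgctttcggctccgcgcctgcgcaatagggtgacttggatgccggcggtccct
Psmd8 chr1:93608690-93608939 (-): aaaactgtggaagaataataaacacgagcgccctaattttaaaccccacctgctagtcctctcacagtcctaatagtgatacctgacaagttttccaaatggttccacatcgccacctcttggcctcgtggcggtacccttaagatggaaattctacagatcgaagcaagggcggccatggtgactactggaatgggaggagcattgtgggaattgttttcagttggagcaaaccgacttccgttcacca

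Psmb10 held the interferon-type letters at 2 places, starting 73 and 17 bases before the gene start. Psmb5 and Psmb6 each held the antioxidant core once, starting 60 and 24 bases before it, and Psmc5 and Psmd8 held neither set of letters in this window. The catalytic subunit gene Psmb7 also held neither. Over the 40 member promoters, the antioxidant core was found in 7 (17.5%), against 10.1% of all 33469 promoters of the same length. Besides Psmb5 and Psmb6 these were the promoters of Psma3, Psmb2, Psmd1, Psmd9 and Psme4. The interferon-type letters were found in 5 (12.5%), against 3.41% of all promoters: Psma4, Psmb3, Psmb10, Psmd7 and Psme2. The letters CCAAT were found in 20 member promoters (50%, against 34.0% of all) and the GC box GGGCGG in 28 (70.0%, against 30.5% of all). The 2 sets marked by capitals overlapped in 0 member promoters. The set of all promoters was not limited to genes on the arrays or matched to the members in base content. The differences between these shares were not tested. These matches describe letters, not binding.

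Some facts of the whole series touch every value that follows. Of the spots other than controls, 81.8% to 85.4% were well above background, and 0 were saturated. The sham arrays lay closer together than the ICH arrays, with a median standard deviation of 0.14 among sham and 0.31 among ICH arrays over the 24650 probes tested. ICH 2 was the array farthest from the sham mean for 53.9% of the probes. All 8 neuron markers with a probe in the test, of 9 listed, were well above background on every array. Of these, 4 had a higher and 4 a lower mean in ICH, and their summed level (linear, relative to the 75th percentile of the array) ran from 32.2 to 34.4 on sham and from 29.2 to 35.7 on ICH arrays. Activated myeloid markers, 9 of 9 with a higher mean in ICH, had a summed level of 2.01 to 2.83 on sham arrays and of 10.5, 11.7 and 2.36 on ICH 1 to 3. Markers of striatal projection neurons, 9 of 9 with a lower mean, had a summed level of 35.3, 35.5 and 18.5 on the sham arrays and of 10.8 to 16.8 on ICH arrays. Oligodendrocyte markers, 6 of 6 with a lower mean, had a summed level of 32.4 to 37.7 on sham arrays and of 33.5, 20.5 and 31.5 on ICH 1 to 3. Reactive astrocyte markers, 6 of 8 with a higher mean, had one of 5.89 to 6.47 on sham arrays and of 18.7, 27.1 and 4.60 on ICH 1 to 3. The part of these cell types in the member values was not tested. In bulk tissue, fewer cells of a type and less RNA per cell cannot be told apart.

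Proteasome genes differed little between ICH and sham. Of the 50 probes, 49 were well above background on at least 3 arrays and entered the test, and these covered all 44 genes. A gene is given by its brightest probe. In ICH, 22 genes were higher and 22 lower. The median difference was -0.01, beside -0.04 for all probes tested and -0.02 for all tested genes given by their brightest probe. The differences ran from -0.57 for Psmc5 to 0.47 for Psmd8, and 41 of 44 (93.2%) were smaller than 0.5 in either direction, against 78.1% of all probes. For 43 of 44 genes (97.7%) the 95% interval of the difference stayed within 2-fold either way, with Psma8 the exception. The share was 66.1% for all probes and 68.8% for all tested genes given by their brightest probe. Of those genes, 79.9% had a difference smaller than 0.5 in either direction. Members other than Psma8 were brighter than the median probe of each array, and these comparisons were not matched for signal level. Relative to each gene's sham mean, sham 1 to 3 had medians of -0.04, 0.02 and 0.01 over the 44 genes, and ICH 1 to 3 had 0.01, -0.04 and 0.07, so the groups overlapped. Directions are relative to the upper percentile of the array to which the values are scaled, not to its median probe. With each array centred on its median 18 genes were higher and 26 lower, and with quantile normalization 31 were higher and 13 lower. With each array centred on its spike-in probes, 40 were higher and 4 lower; the median was then 0.43, where that of all probes was 0.40, and 84.2% of all probes were higher. On that scale the genes that are lowest here lay near 0, at -0.12 for Psmc5, -0.10 for Psmb10 and -0.07 for Psmd2, and Psmd8 stood at 0.91.

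**Figure D1:**
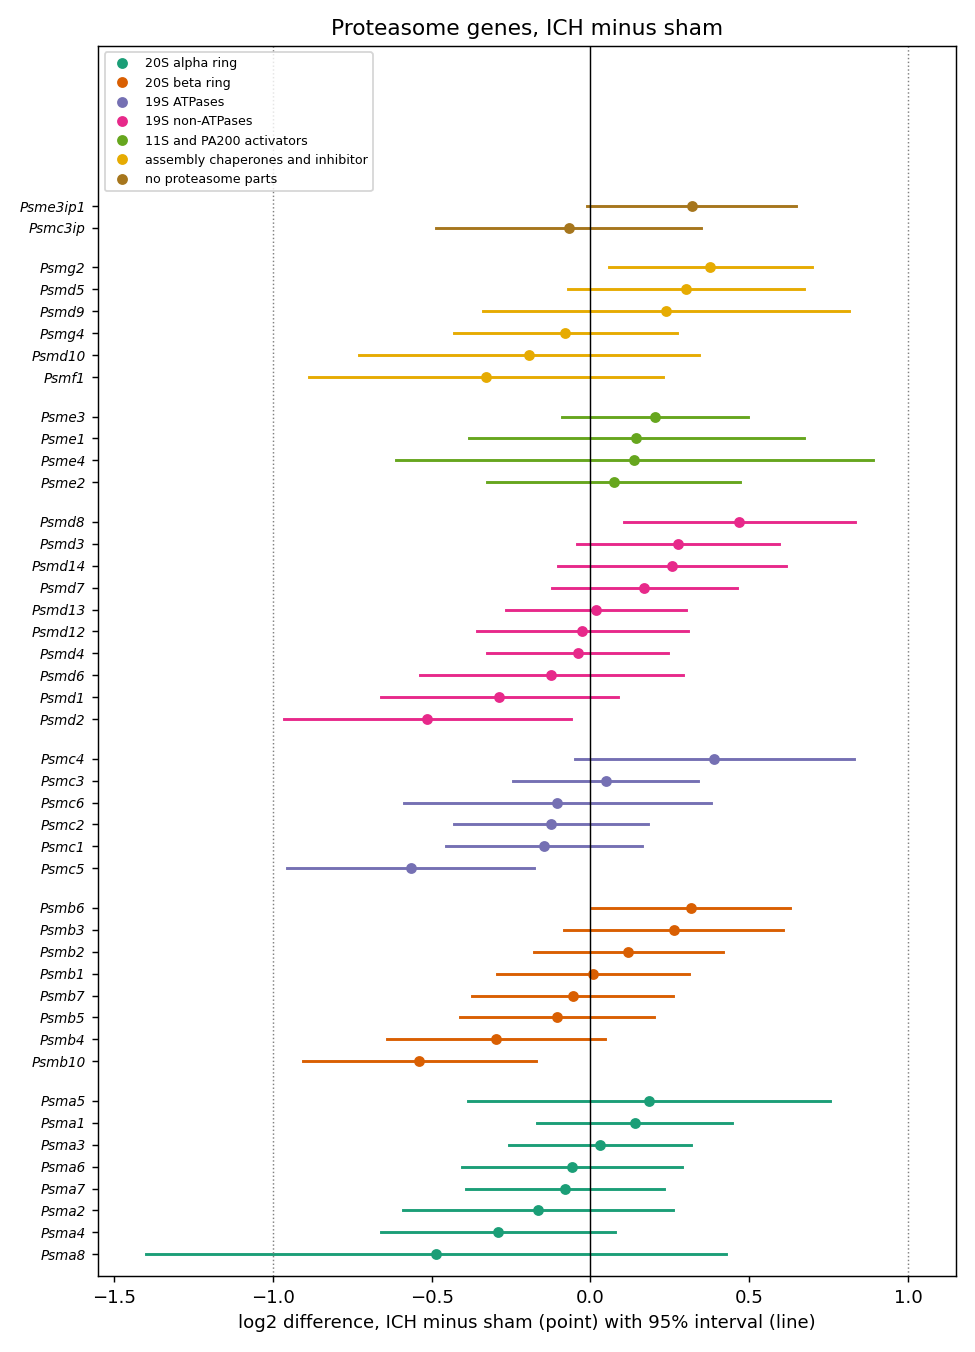
Log2 difference, ICH minus sham, of each of the 44 genes (point, brightest probe, n = 3 arrays in each group) with its 95% interval from limma (line), grouped by place in the complex; dotted lines mark 2-fold. Differences lie between -0.57 and 0.47, and only the interval of Psma8 passes the 2-fold line.

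No member passed the test: limma called 0 of the 44 genes at a Benjamini-Hochberg adjusted p under 0.05, and 0 of all 24650 probes (0.0%). At an unadjusted p under 0.05 there were 3 genes higher (6.82%, against 6.18% of all probes) and 3 lower (6.82%, against 8.82%), together 6 beside 15.0% of all probes in either direction, shares near those of the array as a whole. The 3 ICH values all exceeded the highest sham value for 10 genes (22.7%, against 10.8% of all probes) and lay under the lowest for 6 (13.6%, against 16.7%). These counts moved with single arrays. The genes higher at an unadjusted p under 0.05 came to 1 without ICH 1, 0 without sham 1 and 1 without sham 3, against 2 without sham 2, 2 without ICH 2 and 3 without ICH 3. Those lower came to 6 without ICH 3, the genes with all ICH values below all sham values came to 14 without ICH 3, and the adjusted count stayed at 0 with any 1 array left out. The lowest adjusted p of a member with 1 array left out was 0.0906, for Psma8 without ICH 3, in limma's test with Benjamini-Hochberg adjustment. Psma8 was the dimmest of the 44 genes, with a sham mean of -5.85, and its other tested probe was higher in ICH. A p that misses the threshold does not show equal levels, and the intervals give the sizes that these arrays leave possible.

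In the beta ring of 20S, which holds the proteolytic sites, 4 of 8 genes were higher and 4 lower (median difference -0.02). Psmb10, the inducible subunit that takes the place of Psmb7 in the immunoproteasome, stood at 1.02, 1.12 and 1.05 on the sham arrays, in replicate order here and throughout, and at 0.59, 0.29 and 0.69 on the ICH arrays. All ICH arrays lay below all sham arrays. The difference was -0.54 ± 0.15 (SE; 95% interval -0.91 to -0.17), an ICH level of 68.8% of sham, with an unadjusted p of 0.0112 and an adjusted p of 0.288 by limma. Psmb7, its constitutive counterpart with trypsin-like activity, differed by -0.06 ± 0.13 (95% interval -0.37 to 0.26). Beside Psmb10, of 12 interferon-stimulated genes measured of 13 listed, 9 had a higher and 3 a lower mean in ICH, 0 with an unadjusted p under 0.05. Relative to the sham mean their median stood at -0.16, 0.28 and -0.04 on the sham arrays and at 0.72, 0.81 and -1.07 on the ICH arrays. Their summed level ran from 17.0 to 19.7 on sham arrays and was 24.0, 22.6 and 12.1 on ICH 1 to 3. Mx2, among the 3 with a lower mean, was the brightest and weighed most in this sum. It stood at 3.18, 2.94 and 3.19 on sham and at 2.88, 2.64 and 2.80 on ICH arrays. Of the ICH arrays, Psmb10 was lowest on ICH 2 and highest on ICH 3. The part of the interferon-stimulated genes in its values was not tested.

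Psmb6, the constitutive subunit with caspase-like activity, stood at 0.41, 0.58 and 0.49 on sham and at 0.79, 0.92 and 0.72 on ICH arrays. The groups did not overlap, and the difference was 0.32 ± 0.13 (unadjusted p = 0.0476, adjusted p = 0.331 by limma). Psmb4, a beta subunit without a proteolytic site, stood at 2.50, 2.46 and 2.44 on sham and at 1.97, 2.25 and 2.30 on ICH arrays, all lower, with a difference of -0.30 ± 0.14 (adjusted p = 0.372 by limma) that was -0.20 without ICH 1. Psmb5, which carries the chymotrypsin-like site that proteasome inhibitors block, was at 2.38, 2.41 and 2.41 on sham and at 2.30, 2.17 and 2.40 on ICH arrays. Its groups overlapped, and its 95% interval ran from -0.41 to 0.20. The other members of this ring, Psmb1, Psmb2 and Psmb3, differed by 0.01, 0.12 and 0.26, and each ICH value of Psmb3 exceeded its sham values. Psmb11, the thymus-specific beta subunit, was not analysed here.

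In the alpha ring, whose subunits gate the entry to the barrel, 3 of 8 genes were higher and 5 lower (median difference -0.07), with 0 genes at an unadjusted p under 0.05. Psma4 stood at 2.49, 2.55 and 2.55 on sham and at 2.19, 2.05 and 2.47 on ICH arrays. Every ICH value lay below the sham values, ICH 3 only just, with a difference of -0.29 ± 0.15 (adjusted p = 0.401 by limma). Psma5 stood at 1.31, 1.47 and 1.32 on sham and at 1.22, 2.04 and 1.39 on ICH arrays. Only ICH 2 stood out, so the difference of 0.19 ± 0.23 turned to -0.06 without ICH 2, and was 0.35 without ICH 1. Psma8 takes the place of Psma7 in the testis, and its probes disagreed. The brightest stood at -5.92, -5.78 and -5.85 on sham and at -6.79, -6.77 and -5.45 on ICH arrays, a difference of -0.49 ± 0.38 (adjusted p = 0.536 by limma) that was -0.26 without ICH 1, -0.27 without ICH 2 and -0.93 without ICH 3. Another probe, well above background on 5 of 6 arrays, was 2.14-fold higher in ICH (95% interval 0.996 to 4.61; adjusted p = 0.335 by limma), and the last one was well above background on 0 arrays and stayed out of the test. Of the other alpha genes, Psma1, Psma2, Psma3, Psma6 and Psma7, the differences ran from -0.16 for Psma2 to 0.14 for Psma1.

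Among the 19S ATPases, which unfold substrates and open the gate, 2 of 6 were higher and 4 lower (median difference -0.11). Psmc5 had the lowest difference of all members. It stood at 2.91, 2.74 and 2.77 on sham and at 2.06, 2.16 and 2.50 on ICH arrays, with no overlap. The difference was -0.57 ± 0.16 (95% interval -0.96 to -0.18), an ICH level of 67.5% of sham, with an unadjusted p of 0.0118 and an adjusted p of 0.288 by limma. Psmc4, another ATPase of the same ring, was higher in ICH, at 0.41, 0.65 and 0.58 on sham and at 0.80, 1.26 and 0.75 on ICH arrays. Its groups did not overlap, and the difference was 0.39 ± 0.18 (adjusted p = 0.365 by limma), or 0.23 without ICH 2. Psmc1, whose tail helps to open the gate, stood at 1.96, 1.92 and 1.92 on sham and at 1.74, 1.69 and 1.93 on ICH arrays, with ICH 3 among the sham values and a difference of -0.15 ± 0.13. The remaining ATPase genes Psmc2, Psmc3 and Psmc6 differed by -0.13, 0.05 and -0.10.

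**Figure D2:**
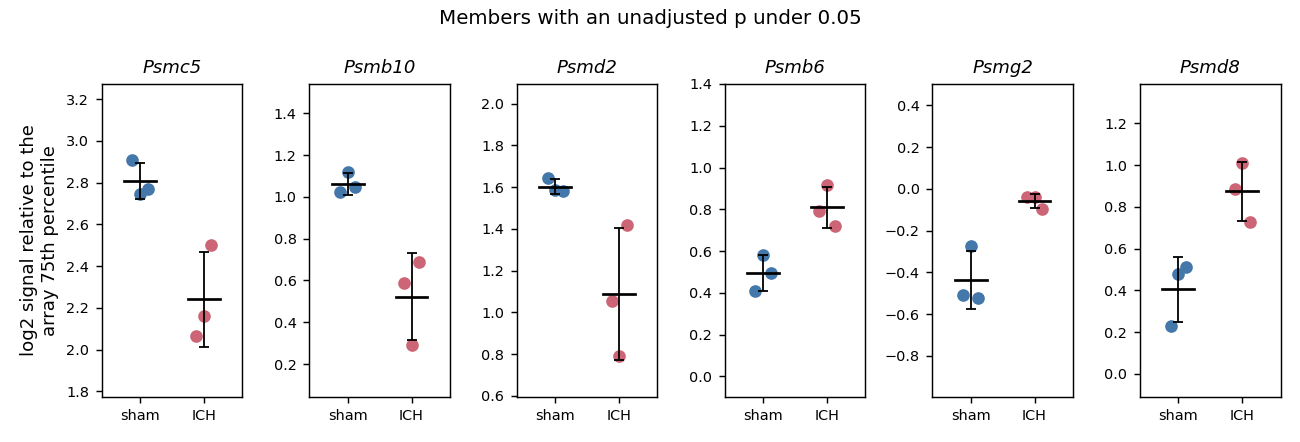
Log2 signal relative to the array's 75th percentile of the 6 genes with an unadjusted p under 0.05 on each sham and ICH array (points), with the group mean (thick bar) and SD (whiskers, n = 3); every panel spans the same log2 range. Psmc5, Psmb10 and Psmd2 are lower and Psmb6, Psmg2 and Psmd8 higher on every ICH array than on any sham array, and 0 of them passed after adjustment.

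Of the 19S subunits without ATPase activity, which bind, hold and deubiquitinate substrates, 5 of 10 were higher and 5 lower (median difference -0.004). Psmd8, of the lid, had the highest difference of all members. It stood at 0.23, 0.48 and 0.51 on sham and at 0.89, 1.01 and 0.73 on ICH arrays, all higher, with a difference of 0.47 ± 0.15 (95% interval 0.11 to 0.83), 1.38-fold, an unadjusted p of 0.0194 and an adjusted p of 0.289 by limma. Psmd2, a large scaffold of the base on which ubiquitin-binding shuttles dock, stood at 1.64, 1.59 and 1.58 on sham and at 1.05, 0.79 and 1.42 on ICH arrays. All ICH values were lower, with a difference of -0.51 ± 0.19, an unadjusted p of 0.0317 and an adjusted p of 0.307 by limma. Psmd1, the other large scaffold of the base, stood at 1.95, 1.99 and 2.01 on sham and at 1.63, 1.52 and 1.94 on ICH arrays, also without overlap (-0.29 ± 0.15, adjusted p = 0.409 by limma). For Psmd1 and Psmd2, as for Psma4, Psmb4, Psmb10 and Psmc5, the highest ICH value was that of ICH 3. The ubiquitin receptor gene Psmd4 and the deubiquitinase gene Psmd14 differed by -0.04 and 0.26, and the lid genes Psmd3 and Psmd7, at 0.28 and 0.17, were higher on every ICH array than on any sham array. Psmd11 was not analysed here.

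The activators of the barrel, 4 of 4 with a higher mean in ICH, had a median of 0.14 and 0 members at an unadjusted p under 0.05. Psme3, the nuclear 11S subunit, stood at -0.01, 0.00 and 0.12 on sham and at 0.29, 0.24 and 0.19 on ICH arrays. Its groups did not overlap, and it differed by 0.20 ± 0.12 (adjusted p = 0.441 by limma). Psme1, which forms the interferon-inducible 11S cap with Psme2, stood at 1.64, 1.81 and 1.75 on sham and at 1.79, 2.30 and 1.54 on ICH arrays, where ICH 2 was highest and ICH 3 lowest of all arrays. Its difference of 0.14 ± 0.22 was -0.07 without ICH 2 and 0.31 without ICH 3. Psme2 stood at 2.09, 2.30 and 2.27 on sham and at 2.53, 2.26 and 2.08 on ICH arrays, with the lowest value again on ICH 3 and a difference of 0.07 ± 0.16. The values of the interferon-stimulated genes stand beside Psmb10, and their part in Psme1 and Psme2 was not tested. Psme4, the PA200 activator, stood at 0.00, -0.13 and 0.11 on sham and at -0.15, 0.83 and -0.28 on ICH arrays. Its difference of 0.14 ± 0.31 came from ICH 2, without which it was -0.21, and its other probe gave 0.36 ± 0.22.

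Of the chaperones that assemble the complex and the inhibitor Psmf1, 3 of 6 genes were higher and 3 lower (median difference 0.08). Psmg2, a chaperone of the alpha ring, stood at -0.51, -0.28 and -0.52 on sham and at -0.04, -0.04 and -0.10 on ICH arrays. All ICH values were higher and lay close together, with a difference of 0.38 ± 0.13 (95% interval 0.06 to 0.70), an unadjusted p of 0.0270 and an adjusted p of 0.298 by limma. Psmd5, a chaperone of the 19S base, stood at -0.71, -0.40 and -0.66 on sham and at -0.35, -0.13 and -0.39 on ICH arrays. Its groups did not overlap, by a narrow margin, and the difference was 0.30 ± 0.15 (adjusted p = 0.393 by limma). Psmf1 stood at 1.66, 1.75 and 1.77 on sham and at 1.62, 0.91 and 1.67 on ICH arrays. ICH 2 alone was far below, so the difference of -0.33 ± 0.23 was -0.08 without ICH 2, and the other probe of Psmf1 was higher in ICH, by 0.29 ± 0.17. The probes of Psmg4 also gave opposite signs, -0.08 and 0.16. The base chaperones Psmd9 and Psmd10 differed by 0.24 ± 0.24 and -0.19 ± 0.22, and Psmg1 and Psmg3 were not analysed here. Of the genes that are no proteasome parts, Psme3ip1 stood at -0.03, 0.13 and 0.11 on sham and at 0.43, 0.50 and 0.24 on ICH arrays, all higher (0.32 ± 0.14, adjusted p = 0.343 by limma). Psmc3ip, at 0.09, 0.19 and 0.01 on sham and at 0.25, -0.26 and 0.09 on ICH arrays, overlapped between groups and differed by -0.07 ± 0.17.

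**Figure D3:**
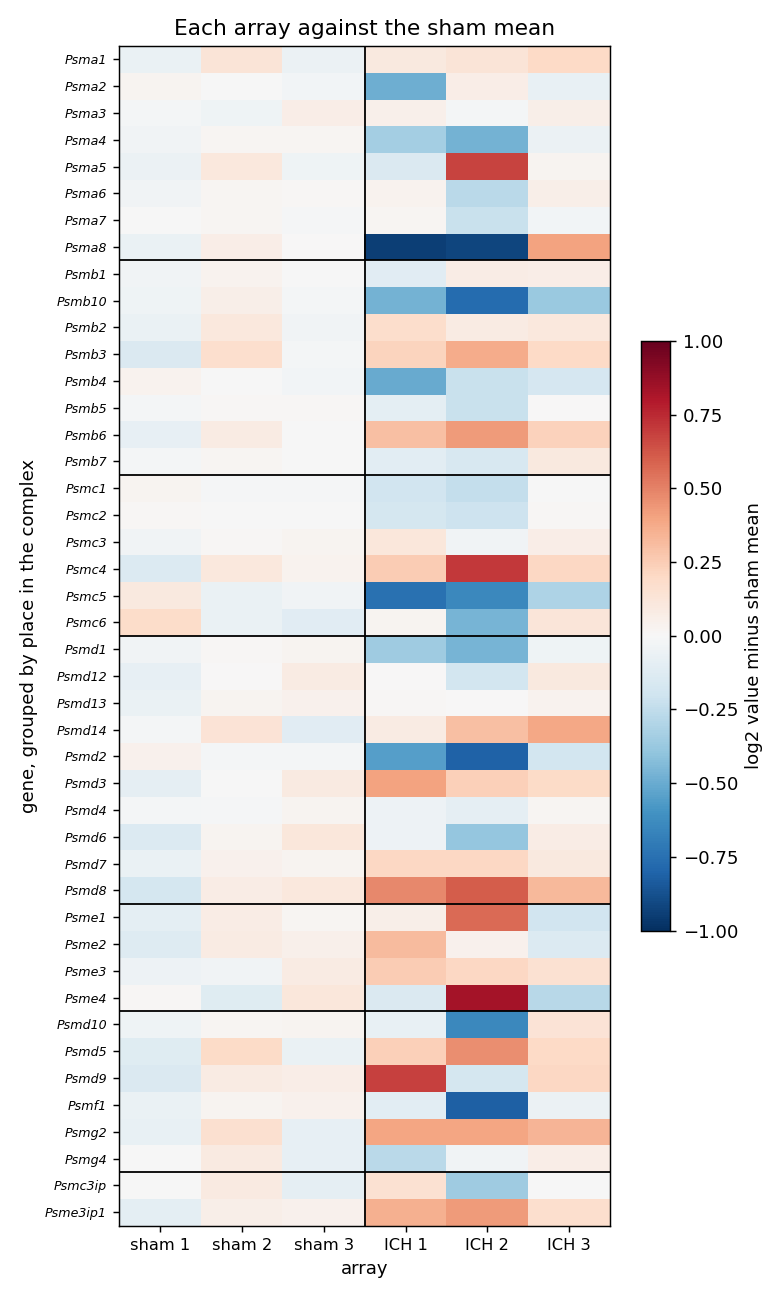
Log2 value of each of the 44 genes (rows, in groups by place in the complex) on each array (columns) minus the gene's sham mean; red is higher and blue lower, and the colour scale ends at 1 in both directions. Most cells are pale, and ICH 2 holds many of the deepest colours. Among other genes, Psmc5, Psmb10 and Psmd2 are blue and Psmd8, Psmg2, Psmb6 and Psmc4 red on all ICH arrays.

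ICH arrays differed among themselves more than sham arrays did, in members as in other probes. The median standard deviation of a member was 0.08 among sham and 0.15 among ICH arrays, each lower than over all probes. Over all tested genes given by their brightest probe it was 0.13 and 0.29, and signal level was not matched. ICH 2 was the array farthest from the sham mean for 27 of 44 genes (61.4%, against 53.9% of all probes). ICH 3 was the ICH array nearest to it for 26 genes (59.1%, against 50.2% of all probes).

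Genes that work with the proteasome were taken from a list of 30, of which 24 had a probe in the test, 13 higher and 11 lower, with a median of 0.01 and 0 called by limma. At an unadjusted p under 0.05 there were 0 higher and 4 lower (against 6.18% and 8.82% of all probes). Pomp and Rps27a were among them. Pomp, the chaperone that completes the maturation of 20S, stood at 2.21, 2.16 and 2.15 on sham and at 1.55, 1.54 and 1.96 on ICH arrays, all lower, with a difference of -0.49 ± 0.16 (adjusted p = 0.292 by limma). Rps27a, which encodes ubiquitin fused to a ribosomal protein, stood at 2.23, 2.14 and 2.20 on sham and at 1.28, 1.81 and 1.80 on ICH arrays, with every ICH value below every sham value. It differed by -0.56 ± 0.18 (adjusted p = 0.291 by limma). By its symbol, Rps27a is also counted among the ribosomal protein genes given below. Ubb, which encodes ubiquitin in tandem repeats, stood at 4.17, 4.09 and 4.15 on sham and at 3.98, 3.54 and 4.08 on ICH arrays, all lower (-0.27 ± 0.18). Uba1, the enzyme that activates ubiquitin, differed by -0.31 ± 0.15 (adjusted p = 0.373 by limma) with one probe and by 0.066 ± 0.11 with the other, so its probes gave opposite signs. The regulator Nfe2l1, at 0.02 ± 0.16, the ubiquitin receptor gene Adrm1, at 0.05 ± 0.14, and the deubiquitinase gene Usp14, at 0.08 ± 0.13, overlapped between groups.

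Other large complexes of every cell, chosen by symbol, had lower medians than the proteasome on the same arrays. Of 83 ribosomal protein genes 4 were higher and 79 lower (median difference -0.40), and for 59 (71.1%, against 16.7% of all probes) every ICH value lay below the sham values. Of 84 oxidative phosphorylation genes 10 were higher and 74 lower (median difference -0.25), and for 47 (56.0%, against the same 16.7%) every ICH value lay below the sham values. On ICH 1 to 3 the ribosomal median was -0.54, -0.34 and -0.24 and the oxidative phosphorylation median -0.28, -0.33 and -0.11, each below the proteasome median of that array. These lists were chosen with results known, and the difference between them and the proteasome genes was not tested. Bright probes dominate the summed linear level of all probes tested. It ran from 27526 to 28434 on sham and from 24975 to 26242 on ICH arrays. On sham arrays it was 517 to 547 for the ribosomal list, 388 to 396 for oxidative phosphorylation and 129 to 135 for proteasome genes. The part of signal level in these medians was not tested. Other normalizations are not given for these lists.

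**Figure D4:**
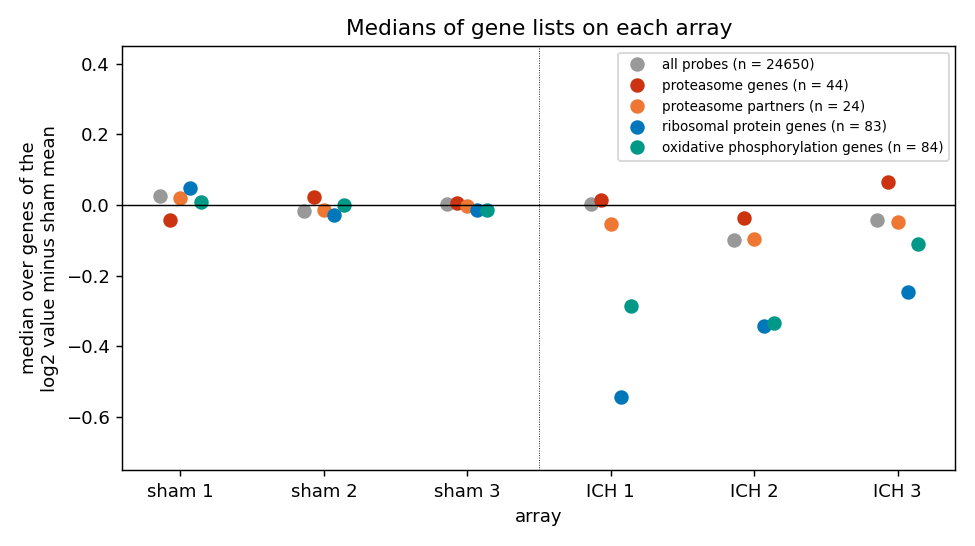
Median over the genes of a list of the log2 value minus the gene's sham mean, on each sham and ICH array, for all probes tested, the 44 proteasome genes, 24 partner genes, 83 ribosomal protein genes and 84 oxidative phosphorylation genes. The proteasome points stay between -0.04 and 0.07, while the ribosomal points lie at -0.54, -0.34 and -0.24 on ICH 1 to 3.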

How the data were processed

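Total RNA of rat brain tissue was hybridized to 6 single-colour Agilent arrays, 1 per sample, on 1 slide in 1 scan. Per the labels' protocols, RNA was extracted with TRIzol and labelled with Cy3 after linear amplification. Per the file headers, Feature Extraction 11.5.1.1 gave each spot's intensity, with background removed inside the array and no scaling across arrays, while version 10.7 stands in the submitters' processing notes. The deposited values are log2, and each column has its 75th percentile at 0. Up to 1 constant per array, 98.5% to 99.3% of them lay within 0.001 of the averaged log2 intensity of the probe's spots, as worked out from the values. A probe counted as well above background where at least 0.5 of its spots did, and was tested if it did on at least 3 of 6 arrays (24650 probes). Symbols came from RefSeq transcripts of assembly GRCr8 (18355 probes with 1 symbol, 0 with several, 12012 with none).

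ICH was tested against sham on the deposited log2 values with limma 3.58.1 in R 4.3.3 (lmFit, eBayes, no covariate), with Benjamini-Hochberg adjustment over all probes tested. The members, the gene lists and the tests were chosen with earlier results of these data known. Genes were given values per array if they were among the 3 largest differences of their group or had an unadjusted p under 0.05, or, for partners, among the 5 largest, with Pomp, Adrm1, Nfe2l1 and Usp14 added. Other probes of a gene were given where they differed in sign or by over 0.5, and that of Psme4 besides; other genes named by value were chosen after their values were seen, and some partners that the rule picks are not reported here. Alternatives changed the source of the values, background correction, normalization, filter, variance model, blocks, gene rule and arrays. The test, on simulated data with 24650 probes for ICH minus sham, found 20.4% of the probes given a 2-fold change and 83.0% of those given 4-fold. It found 93.0% of those given 8-fold and 97.2% of those given 16-fold, and 5.77% of its calls were false. The simulation gave both groups the same spread, made probes independent and changed few of them. The real arrays had a median standard deviation of 0.14 among sham and 0.31 among ICH arrays, so these rates need not hold for them. RefSeq lists pseudogenes or similar copies for 19 of the 44 genes, and the probe letters were not used here, so hybridization to transcripts of such copies was not tested. Python 3.11.15, pandas 2.3.3, numpy 2.4.6 and matplotlib 3.10.9 made the tables and figures.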

Additional observations from a re-analysis of the deposited data

How the results depend on the processing

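In each of the 19 alternatives limma called 0 proteasome genes at an adjusted p under 0.05. Among all probes it called 8 with array quality weights, 4 with the filter on all 6 arrays, 4 with an intensity trend and robust variance, 3 with normexp background correction, 44 with spike-in centring, and 0 to 31 with 1 array left out. Proteasome genes higher at an unadjusted p under 0.05 were 6 with trend and robust variance, 1 with median centring, 6 with normexp, 7 with quantile normalization, 1 with the slide row as a block, 15 with spike-in centring, and 0 to 3 with 1 array left out. Those lower were 5 with trend and robust variance, 0 with spike-in centring and 2 to 6 with 1 array left out. Genes with all ICH values above sham were 17 with quantile normalization, 31 with spike-in centring and 10 to 14 with 1 array left out; those below were 0 with spike-in centring and 6 to 14 with 1 array left out. The median difference was -0.064 with median centring, 0.15 with quantile normalization, 0.43 with spike-in centring and -0.05 to 0.03 with 1 array left out. The median spot signal went into normexp in place of the planned mean.

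The arrays were not treated as paired by replicate number. Deviations of same-numbered arrays correlated at -0.19, -0.01 and 0.07, and those of differently numbered arrays between -0.12 and 0.17. With 3 arrays in each group these values cannot show whether the arrays were paired. With the replicate number as a block 0 proteasome genes were higher at an unadjusted p under 0.05, and the adjusted count was 0.

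Of 532 values of the 28 genes named by rule, 505 kept their direction and 27 changed sign, none called. Many of the 505 could not change. The brightest probe per gene, the changed filters, the variance model and the replicate block left each difference as it was by construction. The mean of probes did so for genes with 1 probe. Spike-in centring raised every difference, so Psmc5 went from -0.57 to -0.12, Psmb10 from -0.54 to -0.10, Psmd2 from -0.51 to -0.07, Pomp from -0.49 to -0.05 and Rps27a from -0.56 to -0.12. With spike-in centring Psma4 stood at 0.15, Psmb4 at 0.15, Psmc1 at 0.30, Psmc3ip at 0.37, Psmd1 at 0.16, Psmf1 at 0.12 and Uba1 at 0.13. The slide row block compares ICH 1 alone with the sham arrays, because the other row held only ICH arrays, so it rests on an arm of 1 array; with it Psma5 stood at -0.14, Psmc3ip at 0.16, Psme4 at -0.15 and Usp14 at -0.029. With array quality weights Psmc3ip stood at 0.068, Psme1 at -0.030 and Psme4 at -0.16; with quantile normalization Psmc1 at 0.024 and Nfe2l1 at -0.021; with median centring Adrm1 at -0.0047 and Nfe2l1 at -0.040; with the mean of its probes Psma8 at 0.31. With 1 array left out, Psma5 ran from -0.060 to 0.35, Psmc3ip from -0.18 to 0.077, Psme1 from -0.068 to 0.31, Psme4 from -0.21 to 0.34, Adrm1 from -0.039 to 0.14 and Nfe2l1 from -0.094 to 0.15. The causes were not tested.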
